A study of Homo sapiens with 16 samples.

Results

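The clustered protocadherins are cell adhesion proteins encoded by 3 neighbouring gene clusters, alpha, beta and gamma, on the long arm of human chromosome 5. They were taken from a table of read counts at transcription start sites (TSS) by their gene symbols, as every alpha, beta, gamma A, gamma B and C-type gene with a window on chromosome 5. This gave 54 genes of 61789 on assembled chromosomes, 16 alpha, 16 beta and 22 gamma genes, with 122 of 237274 distinct windows. Each window was 2000 bp wide and centred on an annotated start. The windows span chr5:140785136-141509070 and all genes listed by RefSeq lie on the plus strand.

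The cells were BJ-5ta, a standard human fibroblast line made immortal by hTERT, the catalytic subunit of telomerase. The control groups were wild type (WT) and the mutant groups were ΔLEO1, a single CRISPR/Cas9 clone lacking LEO1, a subunit of the RNA polymerase II-associated PAF1 complex. Both genotypes were grown in 10% serum, in which they proliferate, or incubated for 10 days in 0.1% serum, which brings fibroblasts into quiescence. Chromatin was immunoprecipitated for H3K9me2, dimethylated lysine 9 of histone H3, which the sample labels call only H3, and input chromatin was sequenced beside it. Replicates A and B gave 16 libraries, and the ΔLEO1 10% serum ChIP library of replicate A was left out because it held 54 reads over all TSS windows. The 7 other ChIP libraries held 2153836 to 3696942 reads over the windows as deposited and the 8 inputs 3267811 to 9238282. Nothing in the labels says that the libraries of a group came from separate cultures, so p-values measure the spread between these libraries, which may be technical.

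Clustered protocadherins are known mainly from the nervous system, where single neurons express different small sets of them and the proteins on neighbouring cell surfaces recognise identical partners. In the alpha and gamma clusters each variable exon has its own promoter and codes for the whole extracellular part, and it is spliced to constant exons shared by the cluster, whereas each beta gene is a single exon with no constant part. The C-type genes at the end of the alpha and gamma clusters are regulated apart from the others. H3K9me2 is deposited by the methyltransferases EHMT1 and EHMT2 and is a mark of silent chromatin. Most protocadherin promoters carry a short conserved element with the core CGCT, at which the architectural protein CTCF can bind.

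RefSeq promoter sequences of build GRCh38.p14, covering 250 bases before each start and 50 after it, were matched for 47 of the 54 genes, and for 46 of these the listed start was the centre of a window. PCDHA3, PCDHA13, PCDHA14, PCDHB6, PCDHB11, PCDHGA12 and PCDHGC5 had no entry. The letters CGCT were searched on both strands. A match of these letters alone does not show that a promoter carries the conserved element, which was not tested. On the sense strand they were present in 46 of the 47 promoters (97.9%, against 53.5% of 27305 promoters of all genes), and on either strand also in 46 (68.8% of all promoters). A sense CGCT that began between bases -110 and -10 was found in 44 (93.6%, against 27.9%). The 110 bases before the start are shown for the C-type genes with an entry, and for genes that stand at the upper or lower end of the H3K9me2 values given in the next paragraphs, with CGCT in capitals.
PCDHAC1, chr5:140926189-140926298, plus strand: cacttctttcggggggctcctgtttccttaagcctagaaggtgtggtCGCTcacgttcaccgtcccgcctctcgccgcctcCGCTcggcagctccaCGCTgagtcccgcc
PCDHAC2, chr5:140966366-140966475, plus strand: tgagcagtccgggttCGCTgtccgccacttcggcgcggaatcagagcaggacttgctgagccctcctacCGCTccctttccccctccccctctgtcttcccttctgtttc
PCDHA10, chr5:140855787-140855896, plus strand: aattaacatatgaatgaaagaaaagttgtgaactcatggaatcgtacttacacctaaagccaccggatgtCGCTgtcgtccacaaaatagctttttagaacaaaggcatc
PCDHB1, chr5:141051264-141051373, plus strand: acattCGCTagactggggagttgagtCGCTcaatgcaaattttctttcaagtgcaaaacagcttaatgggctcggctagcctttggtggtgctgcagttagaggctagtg
PCDHB12, chr5:141208609-141208718, plus strand: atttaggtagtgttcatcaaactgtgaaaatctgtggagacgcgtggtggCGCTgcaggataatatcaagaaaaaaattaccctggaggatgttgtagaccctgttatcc
PCDHGB4, chr5:141387588-141387697, plus strand: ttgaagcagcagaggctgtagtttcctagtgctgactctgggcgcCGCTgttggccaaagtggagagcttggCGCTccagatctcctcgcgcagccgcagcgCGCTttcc
PCDHGC3, chr5:141475856-141475965, plus strand: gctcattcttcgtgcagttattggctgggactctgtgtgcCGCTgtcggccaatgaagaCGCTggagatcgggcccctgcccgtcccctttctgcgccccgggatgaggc
PCDHGC4, chr5:141484920-141485029, plus strand: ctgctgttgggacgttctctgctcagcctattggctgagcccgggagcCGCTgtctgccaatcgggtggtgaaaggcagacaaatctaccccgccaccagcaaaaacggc

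The promoters differed in base composition. The 4 C-type promoters with an entry held 15 to 27 CpG dinucleotides in 300 bases, at a GC content of 59% to 66%. The 11 alternate alpha promoters held 3 to 9 CpG, the 14 beta promoters 5 to 12, the 11 gamma A promoters 2 to 12 and the 7 gamma B promoters 7 to 16, against a median of 13 over the promoters of all genes. PCDHAC1 had 27 CpG, PCDHGC4 23, PCDHGC3 18 and PCDHAC2 15.

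H3K9me2 ChIP over input was measured first, to see where on the locus the mark lay. The alpha genes had more ChIP than input signal nearly throughout, the beta genes were split, and the gamma genes lay in between with single genes far below. Reads were summed over the windows of a gene and tested with edgeR's quasi-likelihood test, two-sided, with Benjamini-Hochberg adjustment over all genes. A gene was called at an adjusted p under 0.05. In WT cells in 10% serum 27 of the 54 genes were called higher in ChIP and 5 lower, where 29.7% of the 57627 genes tested were called higher and 27.3% lower. The alpha cluster gave 14 of these 27, and none of its 16 genes was called lower. The beta cluster had 5 genes called higher and 2 lower of 16, and the gamma cluster 8 higher and 3 lower of 22. The median log2 ratio was 1.11 over the alpha genes, -0.02 over the beta genes and 0.47 over the gamma genes, beside 0.13 over all genes.

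The order alpha, gamma, beta was present in the other conditions as well. In WT cells in 0.1% serum 13 genes were called higher and 5 lower (20.1% and 23.9% of all genes), with medians of 0.70 for alpha, -0.28 for beta and 0.28 for gamma genes. In ΔLEO1 cells in 10% serum, with 1 ChIP library, 14 were called higher and 5 lower (14.4% and 17.1%), with medians of 1.00, -0.31 and 0.16. In ΔLEO1 cells in 0.1% serum 8 were called higher and 10 lower (19.6% and 23.8%), with medians of 0.43, -0.69 and -0.05. In the alpha cluster 8, 11 and 5 genes were called higher in these 3 conditions and 0 lower. In the beta cluster 2, 0 and 1 were called higher and 4, 3 and 7 lower. In the gamma cluster 3, 3 and 2 were called higher and 1, 2 and 3 lower. Calls over all genes depended on the tool. Of 57627 genes DESeq2 called 21702 in WT 10%, 15257 in WT 0.1% and 13902 in ΔLEO1 0.1% serum, against 32857, 25374 and 25003 by edgeR. The number of protocadherin genes called either way likewise depended on the tool, and on single libraries. It went from 32 to 21 without WT 10% serum ChIP replicate B, from 18 to 10 without WT 0.1% serum input replicate B, from 19 to 12 without ΔLEO1 10% serum input replicate B, and from 18 to 10 without ΔLEO1 0.1% serum ChIP or input replicate A. DESeq2 called 20, 8, 8 and 10 genes in WT 10%, WT 0.1%, ΔLEO1 10% and ΔLEO1 0.1% serum.

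**Figure D1:**
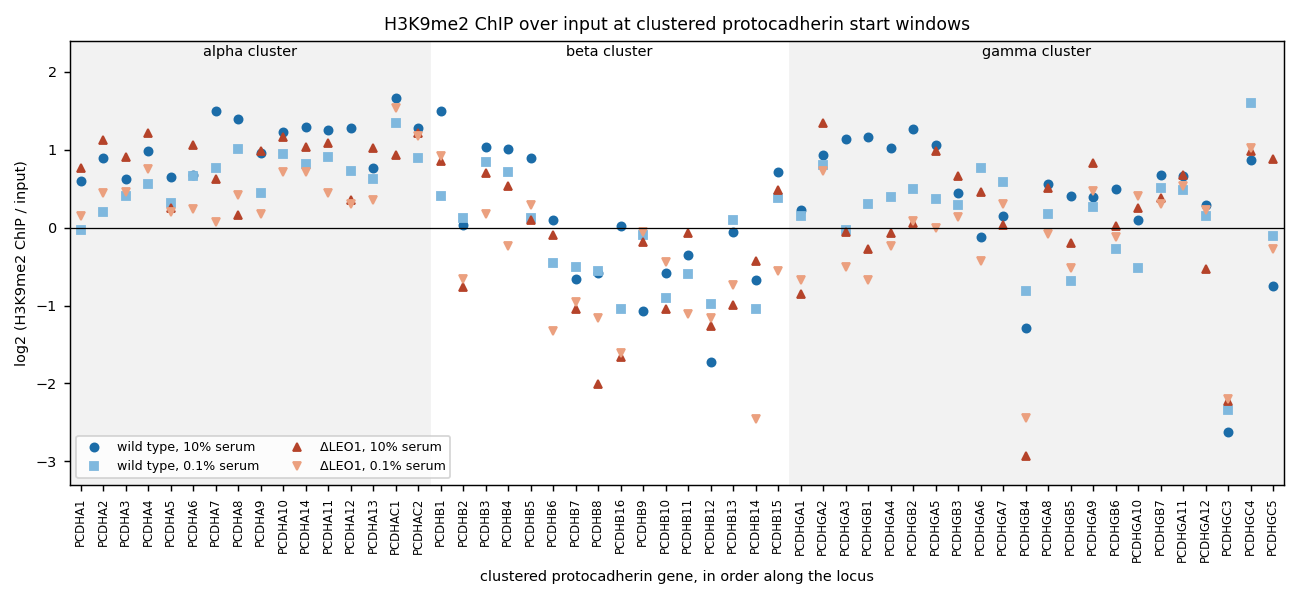
H3K9me2 ChIP over input (log2 fold change from the fit, vertical axis) at the start windows of the 54 genes in their order along the locus (horizontal axis), with 1 symbol for each genotype and serum and no error bars. The alpha genes lie almost all above 0, most points in the middle of the beta cluster lie below 0, and PCDHGB4 and PCDHGC3 lie lowest in the gamma cluster.

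Genes called higher than input in all 4 conditions were PCDHA10, PCDHA14, PCDHAC1, PCDHAC2, PCDHGA2 and PCDHGC4, where 5.81% of all genes were so called. Genes called lower in all 4 were PCDHB12 and PCDHGC3 (13.1% of all genes). Of the 5 C-type genes, PCDHAC1, PCDHAC2 and PCDHGC4 thus stood at the upper end of their clusters and PCDHGC3 at the lower end, and all 4 had more CpG in their promoters than the median of all genes.

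PCDHAC1, a C-type gene of the alpha cluster, had the highest ratio of the locus in the mean of the 4 conditions. In WT 0.1% serum PCDHGC4 was higher, and in ΔLEO1 10% serum several genes were, PCDHGA2 among them. Levels are given as counts per 1000000 reads per window (CPM per window), scaled by library total and TMM factor. In ChIP it had 11.2 and 14.1 in WT 10% serum, 10.6 and 10.7 in WT 0.1% serum, 11.9 in ΔLEO1 10% serum, and 12.8 and 11.2 in ΔLEO1 0.1% serum. Its inputs ranged from 3.15 to 6.49, so no ChIP library overlapped an input. The log2 fold change over input was 1.66 ± 0.25 (SE) in WT 10% serum (adjusted p = 1.09e-05), 1.35 in WT 0.1%, 0.93 in ΔLEO1 10% and 1.54 in ΔLEO1 0.1% serum, and in ΔLEO1 10% serum the call was lost with DESeq2.
PCDHAC2, the other alpha C-type gene, had 8.35 to 11.6 CPM per window in the 7 ChIP libraries and 3.64 to 5.41 in the inputs, again without overlap, and log2 fold changes of 0.89 to 1.28 over the 4 conditions. The lowest alpha genes were PCDHA1, called in 0 conditions with log2 ratios of -0.03 to 0.76, and PCDHA5, with 0.20 to 0.65, called only in WT 10% serum (adjusted p = 0.0307) and not there by DESeq2.

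In the beta cluster the first genes along the locus, other than PCDHB2, had ratios above 0 in the mean of the 4 conditions. PCDHB1, which lies apart from the other beta genes next to the alpha cluster, had 12.4 and 15.5 CPM per window in WT 10% serum ChIP and 7.67 and 7.90 in WT 0.1% serum, against 4.42 to 5.76 in the inputs. Its log2 fold change over input was 1.5 ± 0.22 (SE) in WT 10% serum (adjusted p = 8.56e-06) and 0.92 ± 0.23 in ΔLEO1 0.1% serum (adjusted p = 0.00286), where DESeq2 did not call it, and in the other conditions it was not called. PCDHB3 had log2 fold changes of 1.04 and 0.84 in WT cells, both called by edgeR, and of 0.70 and 0.17 in ΔLEO1 cells, neither called.
PCDHB12, called lower throughout, had 1.20 to 3.76 CPM per window in ChIP and 5.38 to 7.64 in the inputs, without overlap, and log2 fold changes of -0.98 to -1.72. In all conditions but WT 10% serum its call was lost when single libraries were left out. PCDHB14 was called lower in 0.1% serum, with -1.05 ± 0.37 (SE) in WT and -2.46 ± 0.42 in ΔLEO1 cells (adjusted p = 0.0231 and 6.53e-05). Its ΔLEO1 0.1% serum ChIP values were 1.63 and 0.402 CPM per window, and its inputs there 7.0 and 7.43.

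In the gamma cluster PCDHGC3, PCDHGC4 and PCDHGC5 lie next to each other and had different ratios. PCDHGC3 had 0.345 to 1.93 CPM per window in the 7 ChIP libraries and 4.38 to 7.18 in the inputs. Its log2 fold change over input was -2.62 ± 0.42 (SE) in WT 10% serum (adjusted p = 2.34e-05) and between -2.20 and -2.34 in the other 3 conditions, and none of these 4 calls was lost under any alternative run. PCDHGC4 had 8.54 to 13.8 CPM per window in ChIP and 3.77 to 5.98 in the inputs, with log2 fold changes of 0.87 to 1.60. PCDHGC5 had 2.79 and 3.53 CPM per window in WT 10% serum ChIP and 8.75 in the single ΔLEO1 library of that serum, against inputs of 3.73 to 5.95. It was called lower than input in WT 10% serum only (log2 fold change -0.75 ± 0.30 (SE), adjusted p = 0.0349), and that call was lost with DESeq2.
PCDHGB4 was called lower in all conditions but WT 0.1% serum, with log2 fold changes of -1.29 in WT 10%, -0.81 in WT 0.1%, -2.93 in ΔLEO1 10% and -2.44 in ΔLEO1 0.1% serum. Its single window held few reads, with 0.402 to 3.38 CPM in ChIP and 3.57 to 9.54 in the inputs. DESeq2 did not call it in either genotype in 10% serum. PCDHGA2, the highest gamma A gene, had 7.60 to 14.6 CPM per window in ChIP and 4.58 to 6.31 in the inputs, with log2 fold changes of 0.73 to 1.34. Its calls were lost with DESeq2 in all conditions but ΔLEO1 10% serum.

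Input levels set the background of these ratios. Mean input over the 8 libraries was 3.21 to 6.42 CPM per window over the 54 genes, with a median of 5.16, beside 4.98 over all genes. Mean ChIP was 1.09 to 11.8, with a median of 6.76, beside 4.79 over all genes. Protocadherin genes of a cluster share sequence, and how reads that match several copies were counted is not given in the sources used here, so values of single genes with close copies are uncertain.

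Further values came from positions inside the genes. Of the 16092 peak regions in a second count table, 16 lay in the span of the windows, 9 in the alpha, 2 in the beta and 5 in the gamma cluster, and 8 more lay within 1000000 bp of it. Only 2 of the 16 overlapped a protocadherin start window. The midpoints of 14 lay 1500 to 2500 bp downstream of a protocadherin start, and 13 were annotated as exon. On the scale of the start windows ChIP was 2.18 to 5.91 times input in WT 10% serum, with a median of 4.13. The medians were 4.38 in WT 0.1%, 3.69 in ΔLEO1 10% and 2.83 in ΔLEO1 0.1% serum. Peak regions are called on ChIP signal, so these ratios describe them and test nothing. In an edgeR fit of the peak table alone, where TMM sets ChIP over input to centre on 0 over the peak regions, 0 of the 16 were called in WT 10% serum (0% of all peak regions higher, 0.0932% lower). Of the 16 regions 0 had an unadjusted p under 0.05, beside 1249 of all 16092.
The largest number of reads was in the region chr5:140856936-140858467 in PCDHA10, with 50 and 36 in WT 10% serum ChIP and 13 and 35 in the inputs. The region at PCDHAC1, chr5:140926345-140927150, was annotated as promoter, and its ChIP was 4.87 times input in WT 10% serum.
Windows at downstream starts of the same gene could be compared with the first window. In PCDHA10 ChIP over input in WT 10% serum was 1.82 at the first start and 4.05 at a start 2333 bp downstream, whose window overlaps the peak region of that gene. PCDHA11 had 1.60 at the first start and 3.79 at 3035 bp, and PCDHB2 had 0.871 and 1.81 at 2228 bp. PCDHB3 had nearly the same ratio at both places, 2.04 and 2.13 at 2214 bp. In PCDHAC2 the ratio was 3.56 at the first start and 2.06, 1.73 and 1.95 at 15875, 21787 and 22443 bp. In PCDHGA8 it was 1.80 and then 1.22 at 2476 bp. There the RefSeq start is the centre of the second window, and the first window lies before it, downstream of PCDHGB4. PCDHGC3 had 0.202 at the first start and 0.0622 at 32123 bp. In WT 10% serum the direction thus differed from gene to gene. The ratio was higher downstream in PCDHA10, PCDHA11 and PCDHB2 and lower in PCDHAC2 and PCDHGC3. In PCDHGA8 it was lower at the RefSeq start than in the window before that start. PCDHA10, PCDHA11, PCDHB2 and PCDHGA8 kept their direction in the other conditions. PCDHGC3 turned in WT 0.1% serum (0.196 and 0.226) and ΔLEO1 10% serum (0.134 and 0.401), on few ChIP reads. In ΔLEO1 0.1% serum PCDHAC2 had 2.22 and then 1.54, 2.89 and 2.86. Outside WT 10% serum PCDHB3 was higher downstream, with 1.42 and 2.27 in WT 0.1% serum.

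**Figure D2:**
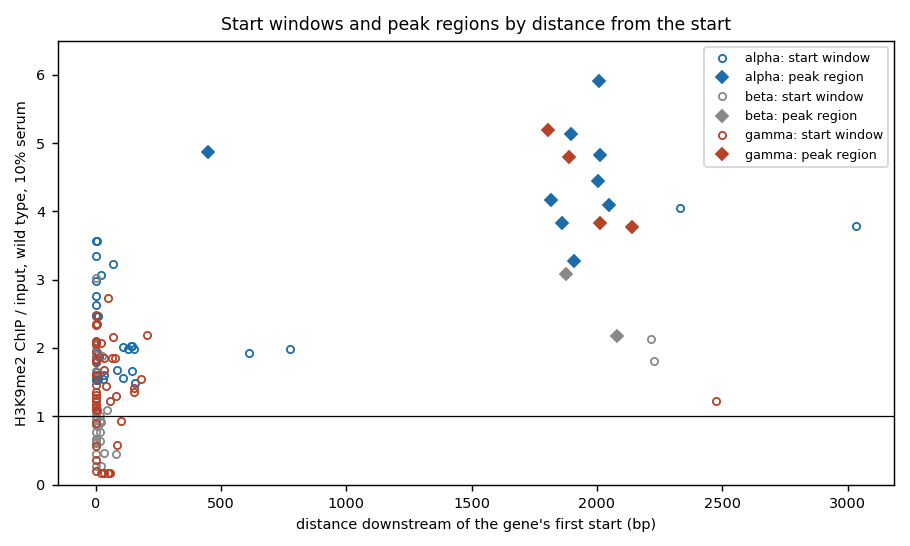
ChIP over input in WT cells in 10% serum (linear ratio, vertical axis) against the distance of the window centre or peak midpoint from the first start of the gene (bp, horizontal axis, up to 4000 bp, which leaves out 1 of the 16 peak regions), with open circles for start windows and diamonds for peak regions, coloured by cluster. Of the 16 peak regions 14 lie between 1500 and 2500 bp from a start, and the regions have ratios of 2.18 to 5.91, above most windows at the start.

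The genotype comparison asked whether loss of LEO1 changed H3K9me2 at these genes. The paper reports guide RNAs against the first exons of LEO1 and a PCR test that showed loss of the stretch between them. How much of that stretch lies in the windows at the LEO1 start is not given, so the targeted gene cannot check the labels. LEO1 had 4.17 to 5.22 CPM per window in ΔLEO1 10% serum inputs and 3.67 to 4.82 in 0.1% serum, against 4.98 to 6.93 in the WT inputs. The log2 fold changes were -0.44 ± 0.24 (SE) in 10% and -0.31 ± 0.24 in 0.1% serum (edgeR adjusted p = 0.770 and 0.999).

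In 0.1% serum, with 2 libraries against 2, more protocadherin genes lay lower than higher in ΔLEO1 cells relative to all genes. This was most marked in the beta cluster, but no gene passed the test. The scaling centres each library on all genes, so a change of the mark across the whole genome cannot be seen here. With its fly spike-in, the study reports a global gain of H3K9me2 in quiescent ΔLEO1 cells. The fit tested 52 of the 54 genes, since PCDHB8 and PCDHGB4 had too few reads. Called genes were 0 of 52 by edgeR and 0 by DESeq2, and over all 52966 genes 0 (0%) by edgeR and 40 by DESeq2. The count over all genes depended on how windows were counted, since edgeR called 520 of 50773 genes with non-overlapping windows and 549 single windows, of which 0 were protocadherins. At an unadjusted p under 0.05 there were 0 higher and 10 lower, against 4.46% and 5.56% of all genes. Log2 fold changes were negative for 41 of 52 genes, against 49.6% of all genes. The median was -0.70 over 15 beta genes, of which 13 were negative, -0.22 over 21 gamma genes with 17 negative and -0.09 over 16 alpha genes with 11 negative, beside 0.00 over all genes. Both ΔLEO1 libraries lay below both WT libraries for 22 genes and above for 5, where 21.4% and 19.9% of all genes did so.

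Sums over a cluster showed the same order. The beta sum was 148 and 143 CPM in the WT libraries and 95.5 and 100 in the ΔLEO1 libraries. The group means were 146 ± 3.22 (SD, n = 2) and 98.0 ± 3.47, a ratio of 0.673. The gamma sum was 301 and 288 in WT and 232 and 237 in ΔLEO1 libraries, a ratio of 0.796. The alpha sum was 336 and 333 against 313 and 310, a ratio of 0.932. In none of the 3 clusters did the groups overlap, but with 2 libraries a group the smallest two-sided p of an exact permutation test is 0.333, so no sum could pass. The inputs of the same cells had ratios of 0.918 for beta, 0.966 for gamma and 0.993 for alpha, and the beta and gamma inputs did not overlap between genotypes either, while the alpha inputs did. The part of the input difference in the ChIP sums was not tested. A scaling by reads in peak regions moved the median of all genes by 0.29 log2 units and with it the cluster sums, to log2 ratios of -0.25 for beta, -0.01 for gamma and 0.21 for alpha, so the alpha direction turned. Relative to the median of all genes, the median log2 fold change was -0.73 for beta, -0.22 for gamma and -0.09 for alpha genes under that scaling.

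**Figure D3:**
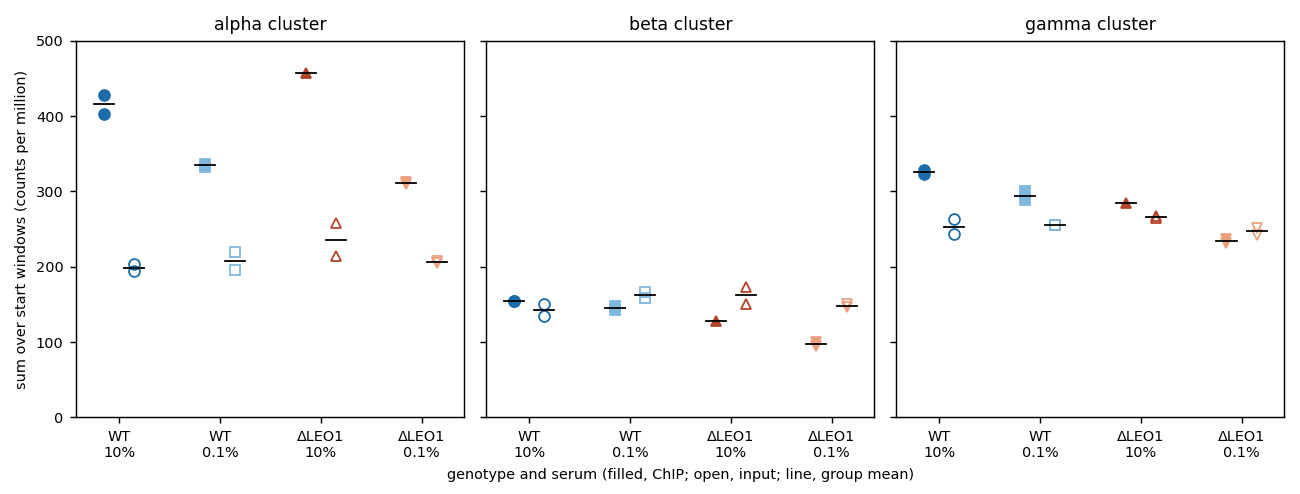
Sums over the start windows of each cluster (CPM, vertical axis from 0) for each library by genotype and serum, with filled symbols for ChIP, open symbols for input and a line at the group mean. In the ChIP libraries of 0.1% serum the ΔLEO1 symbols lie below the WT symbols in each cluster, with the widest relative gap in the beta cluster (ratio 0.673).

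PCDHB2 and PCDHB13, single-exon beta genes, were the furthest below WT in 0.1% serum. PCDHB2 had 6.32 and 5.27 CPM per window in WT ChIP and 2.77 and 2.25 in ΔLEO1 ChIP, a log2 fold change of -1.15 ± 0.28 (SE) with an edgeR adjusted p = 0.200. The groups did not overlap, and its input log2 fold change was -0.39. PCDHB13 had 5.22 and 3.01 in WT and 1.36 and 2.01 in ΔLEO1 ChIP, a log2 fold change of -1.06 ± 0.44 (SE), edgeR adjusted p = 0.438.
On the other side were PCDHGA10, a gamma A gene, and PCDHB1. PCDHGA10 had 4.6 and 3.39 in WT and 5.97 and 8.04 in ΔLEO1 ChIP, a log2 fold change of 0.68 ± 0.32 (SE), edgeR adjusted p = 0.512. PCDHB1 had 0.33 ± 0.26 (SE), edgeR adjusted p = 0.713. Neither passed the test, although the libraries did not overlap for either gene. Of the C-type genes, PCDHAC1 alone had ΔLEO1 libraries above both WT libraries in 0.1% serum.

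In 10% serum a single ΔLEO1 library was compared with 2 WT libraries, and its spread was taken from the other groups. Again 0 of 52 genes were called by edgeR and by DESeq2 (edgeR over all genes, 0% higher and 0.00378% lower). At an unadjusted p under 0.05, 2 were higher and 7 lower, against 3.68% and 5.1% of all genes. The ΔLEO1 library lay below both WT libraries for 25 genes and above for 16, where 36% and 36.3% of all genes did so. The medians were -0.26 over beta, -0.36 over gamma and -0.01 over alpha genes.
The beta sum was 155 and 154 in the WT libraries and 128 in the ΔLEO1 library, a ratio of 0.828, and the gamma sum 329 and 323 against 285, a ratio of 0.876. The alpha sum was 403 and 428 against 457, so here the ΔLEO1 library lay above. With windows counted once where they overlap, the alpha sum of the ΔLEO1 library was 201 CPM (95% exact Poisson interval 182 to 222, counting error only) beside 199 and 200 in WT. The same count gave 86.1 (73.9 to 99.7) beside 106 and 108 for beta and 147 (131 to 164) beside 168 and 163 for gamma. These intervals leave out the spread between libraries, which 1 ΔLEO1 library cannot give, so they test no difference between genotypes. In the 10% serum inputs the ΔLEO1 sums were higher, with ratios of 1.19 for alpha, 1.14 for beta and 1.05 for gamma. The 2 ΔLEO1 alpha inputs were 258 and 214 CPM, and the higher came from the shallowest input.

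PCDHGC5 stood furthest above WT in 10% serum, with the levels given with its ChIP over input, a log2 fold change of 1.34 ± 0.34 (SE) and an edgeR adjusted p = 0.245. PCDHB9 followed with 0.87 ± 0.47. PCDHGA1, the first gamma gene, stood furthest below, with 6.78 and 8.06 CPM per window in WT and 2.92 in the ΔLEO1 library, a log2 fold change of -1.27 ± 0.37 (SE), edgeR adjusted p = 0.313. PCDHB16 had 4.39 and 4.37 in WT and 1.95 in the ΔLEO1 library (-1.05 ± 0.50).
All ΔLEO1 ChIP libraries lay below all WT libraries of the same serum for 16 of 52 genes in both sera, where 10.2% of all genes did so. These were PCDHA5, PCDHA14, PCDHA12, PCDHB2, PCDHB4, PCDHB6, PCDHB16, PCDHB13, PCDHB15, PCDHGA1, PCDHGA3, PCDHGB1, PCDHGA4, PCDHGB2, PCDHGA7 and PCDHGA11. They held 3 of 16 alpha, 6 of 15 beta and 7 of 21 gamma genes. PCDHGA10 alone lay above in both sera (9.05% of all genes).

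**Figure D4:**
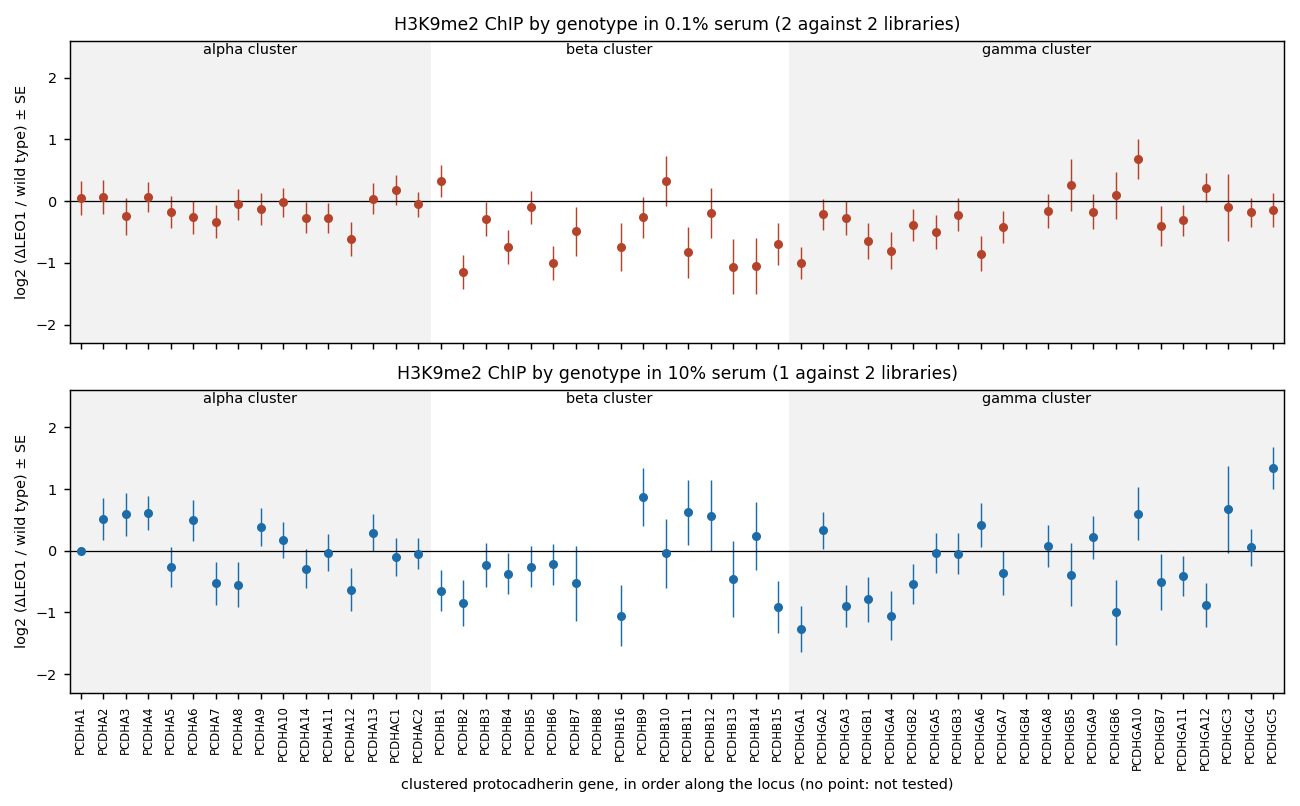
Log2 fold change of ΔLEO1 over WT in H3K9me2 ChIP (vertical axis, bars are SE) for the 52 genes tested, in order along the locus, in 0.1% serum (upper panel) and in 10% serum (lower panel, 1 ΔLEO1 library). In 0.1% serum 41 of 52 points lie below 0, and no gene was called in either serum (PCDHA1 in 10% serum, at 0.00, has no bar).

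In the inputs of both genotypes 0 of 54 genes were called in either serum by edgeR and by DESeq2 (edgeR over all genes, 0% except 0.00174% lower in 10% serum). At an unadjusted p under 0.05 there were 0 genes in 0.1% serum (2.3% of all genes higher and 2.87% lower), and 7 higher and 2 lower in 10% serum (2.99% and 3.73% of all genes). The furthest in 10% serum were PCDHGB4, with 0.78 ± 0.28 (SE), and PCDHB8, with 0.77 ± 0.34, on the upper side, and PCDHB15, with -0.73 ± 0.33, and PCDHGB6, with -0.58 ± 0.28, on the lower. Without ΔLEO1 10% serum input replicate B, PCDHB8 had a log2 fold change of 1.45. That fit held 1 ΔLEO1 input of 10% serum, the shallowest input, so it gives an effect size only. In 0.1% serum PCDHA8 had 0.54 and PCDHGC4 0.39, and PCDHGA9 and PCDHB2 had -0.39 each.

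The serum comparison asked whether the mark differed between quiescent and proliferating cells. In WT cells the alpha genes lay lower in 0.1% than in 10% serum relative to all genes, and no gene passed the test. Called genes were 0 of 52 by edgeR and by DESeq2 (0% of all genes by edgeR, and 261 of 50773 with non-overlapping windows, 0 of them protocadherins), with 2 higher and 7 lower at an unadjusted p under 0.05 (4.02% and 5.05% of all genes). Log2 fold changes were negative for 15 of 16 alpha, 8 of 15 beta and 15 of 21 gamma genes, against 51.6% of all genes. The medians were -0.24, -0.19 and -0.19 beside -0.01 over all genes. Both 0.1% serum libraries lay below both 10% serum libraries for 26 of 52 genes (23.6% of all genes) and above for 5 (17.2%), and 11 of the 26 were alpha genes. The alpha sum was 403 and 428 CPM in 10% and 336 and 333 in 0.1% serum, a ratio of 0.805. The beta and gamma ratios were 0.943 and 0.903, and both turned under the scaling by peak reads, to log2 ratios of 0.11 and 0.05, while alpha was at -0.12.
PCDHB9 had 1.60 and 2.69 CPM per window in 10% and 5.63 and 4.52 in 0.1% serum, a log2 fold change of 1.18 ± 0.36 (SE), edgeR adjusted p = 0.368. PCDHGA6 had 5.58 and 6.05 against 8.44 and 12 (0.80 ± 0.28). On the lower side PCDHGA3 had 12 and 9.41 against 5.83 and 5.27 (-0.86 ± 0.26, edgeR adjusted p = 0.358), with no overlap, and PCDHGB5 had 6.58 and 2.69 against 2.92 and 1.32 (-0.90 ± 0.40), with overlap.

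In ΔLEO1 cells 2 libraries in 0.1% serum were compared with 1 in 10% serum, and 0 of 52 genes were called by edgeR and by DESeq2 (edgeR over all genes, 0% higher and 0.00189% lower), with 1 higher and 8 lower at an unadjusted p under 0.05 (5.07% and 4.93% of all genes). The alpha sum was 457 in 10% and 313 and 310 in 0.1% serum, a ratio of 0.682. Log2 fold changes were negative for 14 of 16 alpha genes (49.2% of all genes), with a median of -0.44 beside 0.01 over all genes. The beta and gamma ratios were 0.766 and 0.821. PCDHGA12 had 3.40 CPM per window in 10% and 6.11 and 5.42 in 0.1% serum (0.77 ± 0.35), and PCDHGB6 had 3.40 against 2.99 and 7.63 (0.51 ± 0.55), which overlap. PCDHB14 had 2.92 against 1.63 and 0.402 (-1.10 ± 0.58), and PCDHGC5 had 8.75 against 4.89 and 3.01 (-0.98 ± 0.32).
The interaction of genotype and serum was tested in the same fit and called 0 of 52 genes by edgeR and by DESeq2 (0% of all genes by edgeR), with 2 higher and 2 lower at an unadjusted p under 0.05 (3.31% and 2.57% of all genes). The lowest values were PCDHGC5 with -1.49 ± 0.43 (SE, edgeR adjusted p = 0.607) and PCDHB11 with -1.44 ± 0.68, and the highest were PCDHGB6 with 1.11 ± 0.66 and PCDHGA12 with 1.09 ± 0.43. All 4 rest on the single ΔLEO1 library of 10% serum. In the peak regions of the clusters 0 of 16 were called by edgeR for genotype, serum or interaction (0.0124% of all peak regions were higher and 0.0497% lower for genotype in 0.1% serum, and 0% in the others). At an unadjusted p under 0.05 there was 1 for genotype in each serum and 0 for serum and interaction. Of all 16092 peak regions 1340 had such a p for genotype in 0.1% and 1127 in 10% serum. For serum there were 1170 in WT and 1232 in ΔLEO1 cells, and for the interaction 891. The lowest value for genotype in 0.1% serum was -0.94 ± 0.45 (SE) in PCDHB6 (edgeR adjusted p = 0.581), where the start windows lay lower as well.

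Other gene groups give the scale of these ratios in WT 10% serum. Of 12 non-clustered protocadherins, which lie at other loci, 8 were called higher than input and 4 lower, with a median log2 ratio of 1.33. Of 15 classical cadherins 7 were higher and 2 lower, with a median of 0.51. Of 106 other genes within 1000000 bp of the clusters 21 were higher and 45 lower, with a median of -0.25. Genes that fibroblasts express, such as COL1A1 (log2 ratio -3.02) and VIM (-3.84), were lower in 10 of 12, with a median of -2.04, and genes of other cell types had 2 higher and 1 lower of 12, with a median of 0.19. Of 14 tested regulators of protocadherin promoters, such as CTCF (log2 ratio -1.34) and SMCHD1 (0.04), 8 were lower and 0 higher, with a median of -0.95.
For genotype in 0.1% serum 0 genes of these lists were called by edgeR. The medians were -0.28 for non-clustered protocadherins, with 11 of 12 negative, -0.16 for classical cadherins, 0.01 for the 96 neighbours tested, 0.02 for the regulators, 0.28 for the fibroblast genes and -0.20 for genes of other cell types. The beta genes, at -0.70, had the lowest median of the groups given here, and the difference between groups was not tested.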

How the data were processed

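H3K9me2 ChIP and input libraries of BJ-5ta cells were analysed from 2 tables of raw read counts deposited by the authors, one over 272902 windows of 2000 bp at TSS and one over 16092 merged peak regions, with 1 column for each library. The study describes csaw for counting and a spike-in of fly chromatin for scaling. The submitters' processing notes name bcl2fastq 2.20.0.422, STAR 2.7.10a and HOMER. The peak caller and the handling of duplicates are not given in the sources used here. The tables hold no fly reads, so a shift of the mark across the whole genome cannot be seen.

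The notes also list a human and a fly build, and starts matched RefSeq positions of GRCh38.p14. Members and gene lists were chosen with earlier results of these data known. Distinct windows were summed by gene symbol on assembled chromosomes. Windows of a gene overlap, so a read may count more than once. Groups came from the labels. Counts were tested with edgeR 4.0.16 in R 4.3.3 (filterByExpr minimum count 10, TMM, quasi-likelihood test, prior count 2), with 7 ChIP, 8 input or 15 libraries in a fit and 1 coefficient per group. SE was derived from the F statistic. CPM uses the TMM factors of the 15-library fit. The genes named for ChIP over input are the 2 highest and 2 lowest of each cluster by the mean of 4 conditions. For other contrasts they are the called genes or, with 0 called, the 2 furthest in each direction. The C-type genes are always named. PCDHA10, PCDHA14, PCDHB8, the genes of the 16-gene list and those with downstream windows or peaks were named after their values were seen. Alternatives were the ChIP library left out, no filter, other scalings, DESeq2 1.42.0, the replicate letter as a block, non-overlapping or single windows, input differences taken off and leaving out each library.

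On simulated counts with 200 changed genes, 36 were recovered for genotype in 0.1% serum at a change of 1 log2 unit and 185 at 2, among 51814 and 51838 genes. For genotype in 10% serum 2 and 123 were recovered among 51732 and 51834 genes, and for ChIP over input in WT 10% serum 45 and 193 among 57275 and 57272 genes. Intervals come from the reads of 1 library and cover only counting error. No molecular identifiers mark PCR copies, so the intervals take each read as independent. Figures were drawn with matplotlib.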

Additional observations from a re-analysis of the deposited data

Results flagged for a closer look

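The alpha cluster sum lay below WT in both ΔLEO1 ChIP libraries of 0.1% serum (log2 ratio -0.10) and above both WT libraries in the single ΔLEO1 library of 10% serum (0.14), a difference between sera of -0.24. It is listed because the libraries of the 2 sera lay on opposite sides of WT, and the difference of the sums was not tested. With non-overlapping windows the 10% serum value was 0.01. For single genes opposite sides were seen in 4 of 52 (7.69%, against 10.9% of all genes), and the interaction test of the fit called 0 of them. Groups held 1 or 2 libraries, so single libraries that stand apart within a group were not tested for.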

How the results depend on the processing

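Counts of called protocadherin genes for genotype, serum and interaction in ChIP stayed at 0 under all alternatives run. Over all genes they did not. With non-overlapping windows, single windows and all 8 ChIP libraries edgeR called 520, 549 and 97 for genotype in 0.1% serum, 30, 36 and 73 for genotype in 10% serum, 261, 363 and 75 for serum in WT and 150, 123 and 87 in ΔLEO1 cells, and 0, 0 and 39 for the interaction, against 0, 2, 0, 1 and 0 in the fit reported. For the 10% serum inputs, leaving out a library left 1 in a group, so only effect sizes are given there. For ChIP over input DESeq2 called 20, 8, 8 and 10 genes in WT 10%, WT 0.1%, ΔLEO1 10% and ΔLEO1 0.1% serum. By edgeR there were 32, 18, 19 and 18, and over all genes DESeq2 called fewer as well. With all 16 libraries ΔLEO1 10% serum had 6. Leaving out libraries gave 21 to 28, 10 to 14, 12 to 16 and 10 to 13. The median over all members for ChIP over input in WT 10% serum was 0.66, and 0.53 with all 16 libraries, 0.91 without TMM, 0.45 with non-overlapping windows, 0.53 by DESeq2 and 0.55 to 0.67 with libraries left out. With peak totals the median for genotype in 0.1% serum was 0.04 in place of -0.25 and for serum in WT cells -0.06 in place of -0.21. Without TMM the log2 cluster sums were -0.08 for alpha by genotype in 0.1% serum, -0.26, -0.03 and -0.09 for alpha, beta and gamma by serum in WT cells, and 1.32, 0.37 and 0.62 over input. With non-overlapping windows they were -0.13 (alpha) and -0.48 (beta) by genotype, -0.17 (beta) and -0.20 (gamma) by serum, and 1.17, 0.32 and 0.44 over input. With peak totals they were 0.21, -0.25 and -0.01 by genotype and -0.12, 0.11 and 0.05 by serum. With libraries left out the alpha sum by serum was -0.36 to -0.27 and the beta sum over input 0.04 to 0.19. The cause of these differences was not tested, except that peak totals shift all genes.

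Deviations from group means correlated at 0.00161 to 0.0151 between same-lettered ChIP libraries. Counting noise at low depth makes such correlations small, so they cannot tell whether the replicate letters pair the libraries. With the letter as a block 0 genes were called for genotype or serum, and 32, 18, 18 and 18 for ChIP over input in the 4 conditions. Of the values of named genes, 10 gained and 56 lost a call under an alternative, 9 of the gains in ChIP over input and 1 in the inputs. Depth limits single genes, with, for PCDHB14, 2 to 18 summed reads in a ChIP library. Its 2 windows are offset by 16 bp, so these sums count reads more than once. The first window of PCDHGC3 held 1 to 5 reads in a ChIP library. Genotype and clone cannot be told apart, because ΔLEO1 is 1 clone.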
